A study of Mus musculus with 32 samples.

Results

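The genes described here are 34 members of the interferon response and of class I antigen presentation in the basolateral amygdala of the mouse, a brain region known for its part in fear learning. They were listed by gene name, with earlier results of these data known, and were looked up in a table of 40392 genes. All 34 were found, all 34 were among the 23778 genes that passed the filter on low counts, and none was at 0 counts in any library. By role they comprise 5 transcription factors and regulators, 18 antiviral effectors, 3 guanylate-binding proteins and 8 genes of class I presentation.

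Polyadenylated RNA was sequenced from 32 libraries in 8 groups of 4. Each group combines an age class (adolescent or adult), a treatment (control or social defeat, in which a test mouse is subdued by an aggressor) and a day (1 or 21). The labels do not give a strain, a sex, a genotype or the event from which the days count, and the 6-week and 9-week ages named for the series are not assigned to the age classes. Whether each library stands for its own animal is not stated either, so the p-values measure the spread between libraries. Library totals ran from 53885799 to 82208892 counts. All 5 markers of basolateral amygdala excitatory neurons looked up were present in every library, among them Rspo2, a secreted Wnt agonist, at 2.01 to 3.93 FPKM (reads scaled to gene length and library depth).

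Interferons are secreted signals that bind cell surface receptors and activate Janus kinases. Type I interferon acts through a complex with STAT2 and IRF9 that binds interferon-stimulated response elements (ISREs) in the promoters of antiviral genes. The class I pathway, which interferon and the coactivator NLRC5 can raise, cuts proteins with the proteasome, carries the peptides into the endoplasmic reticulum through the TAP transporter, and loads them onto heavy chains such as H2-D1 and H2-K1 paired with beta-2 microglobulin. In brain tissue class I molecules are known from microglia and endothelial cells, and also from neurons, where they have been linked to synaptic remodelling. In bulk RNA, a change in the number of cells of a type and a change in the RNA per cell cannot be told apart.

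Promoter sequences from RefSeq (GRCm38.p6, 250 bases before to 50 bases after the start site) were matched by symbol to 28 of the 34 members, with 34 promoters in all. Usp18, Ifi27, Tap2, Rtp4, Nlrc5 and Parp14 had no entry. The ISRE was searched as GAAA, any 2 bases and GAAA again, a shorter interferon regulatory factor core as AANNGAAA, which every ISRE also contains, and the gamma-activated sequence as TTCNNNGAA, each on both strands. An ISRE match lay in the promoters of 14 of the 28 members, against 3.99% of 27025 genes. The core matched in 19 of 28 (67.9%, against 26.7% of genes) and the gamma-activated sequence in 7 of 28 (against 9.55%). Such a match describes letters in these windows and shows no binding. The members that the expression results turn on are shown first, because they differ in this respect. Ifit1 holds a pair of ISRE matches, while H2-D1 and H2-K1 hold a core match and no match to the full ISRE pattern. The search required every fixed base of a pattern, so an element that departs from it at any of them was not counted. Capitals mark the ISRE in Ifit1 and the core in the other promoters, and all run 5′ to 3′ on the strand of the gene.
Ifit1 promoter, plus strand, chr19:34640639-34640938: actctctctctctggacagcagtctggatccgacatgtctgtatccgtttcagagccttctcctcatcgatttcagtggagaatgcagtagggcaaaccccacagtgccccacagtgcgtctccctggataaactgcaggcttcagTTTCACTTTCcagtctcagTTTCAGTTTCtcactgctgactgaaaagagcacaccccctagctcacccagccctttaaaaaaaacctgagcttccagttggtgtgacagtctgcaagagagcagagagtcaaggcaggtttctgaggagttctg
H2-D1 promoter, plus strand, chr17:35262844-35263143: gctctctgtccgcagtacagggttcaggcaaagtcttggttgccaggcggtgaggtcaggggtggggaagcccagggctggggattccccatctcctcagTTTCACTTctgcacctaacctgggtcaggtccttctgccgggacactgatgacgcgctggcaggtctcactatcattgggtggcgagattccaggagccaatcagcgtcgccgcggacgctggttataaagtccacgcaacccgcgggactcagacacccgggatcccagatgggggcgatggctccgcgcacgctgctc
H2-K1 promoter, minus strand, chr17:34000284-34000583: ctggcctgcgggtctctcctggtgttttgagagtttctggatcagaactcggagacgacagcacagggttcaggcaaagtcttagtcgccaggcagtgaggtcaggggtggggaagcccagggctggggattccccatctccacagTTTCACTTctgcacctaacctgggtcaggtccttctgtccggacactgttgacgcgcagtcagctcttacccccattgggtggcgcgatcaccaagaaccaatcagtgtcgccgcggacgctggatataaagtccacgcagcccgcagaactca
The matches in Ifit1 began 104 and 85 bases before the start site. The core in H2-D1 began 150 bases before the start site and that in this H2-K1 promoter 104 bases before it. The 2 heavy-chain promoters were 66.0% identical over their alignment. Neither of the 2 Irf9 promoters held an ISRE or core match.

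Shorter windows show how the ISRE matches of other members are arranged, with each match in capitals and overlapping matches as 1 run. Ifit3 and Ifit3b, a near-identical pair whose promoters were 76.2% identical, share the same window, while in Isg15 3 matches overlap.
Ifit3 and Ifit3b, plus strand, from chr19:34583279-34583578 and chr19:34607707-34608006: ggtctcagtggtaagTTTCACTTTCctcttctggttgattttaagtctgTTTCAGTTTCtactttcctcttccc
Isg15, minus strand, from chr4:156200769-156201068: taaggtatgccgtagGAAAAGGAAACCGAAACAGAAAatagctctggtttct
Bst2, minus strand, from chr8:71537423-71537722: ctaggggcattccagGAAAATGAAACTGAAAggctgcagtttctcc
Gbp3, plus strand, from chr3:142559794-142560093: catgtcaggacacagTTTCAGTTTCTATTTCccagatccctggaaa
Gbp7, plus strand, from chr3:142530086-142530385: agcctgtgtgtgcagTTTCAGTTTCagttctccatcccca
B2m, plus strand, from chr2:122147437-122147736: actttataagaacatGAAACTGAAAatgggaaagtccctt
The match in B2m began 139 bases before the start site, that in Gbp7 53 bases before it, and the run in Isg15 78 bases before it.

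Levels between genes were compared in FPKM, which is per length of gene model. B2m, the invariant light chain of class I, was by far the most abundant member, with a mean of 66.9 FPKM over the 32 libraries (range 52.2 to 90.5). Ifi27, an interferon-induced membrane protein gene, averaged 14.8 FPKM, H2-D1 11.4, H2-K1 7.49 and Tapbp, the tapasin chaperone that bridges class I to TAP, 6.33. Among the regulators Stat2 led with 4.65 FPKM and Irf9 followed with 2.73, whereas Irf7, a factor that amplifies interferon responses, averaged 0.511 and Nlrc5 0.0913. In all, 18 of the 34 members averaged under 1 FPKM. The interferon-inducible proteasome subunit genes Psmb8 and Psmb9 averaged 0.614 and 0.284 FPKM, while the constitutive subunits they replace, Psmb5 and Psmb6, averaged 62.0 and 29.2 FPKM. Psmb10, an inducible subunit gene that is not among the members, averaged 11.7 FPKM, beside 19.1 FPKM for the constitutive Psmb7. The antiviral effector Rsad2 (viperin) averaged 0.160 FPKM and Ifi44 0.0897. The 34 members together held 0.0230% to 0.0414% of the scaled counts of a library.

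**Figure D1:**
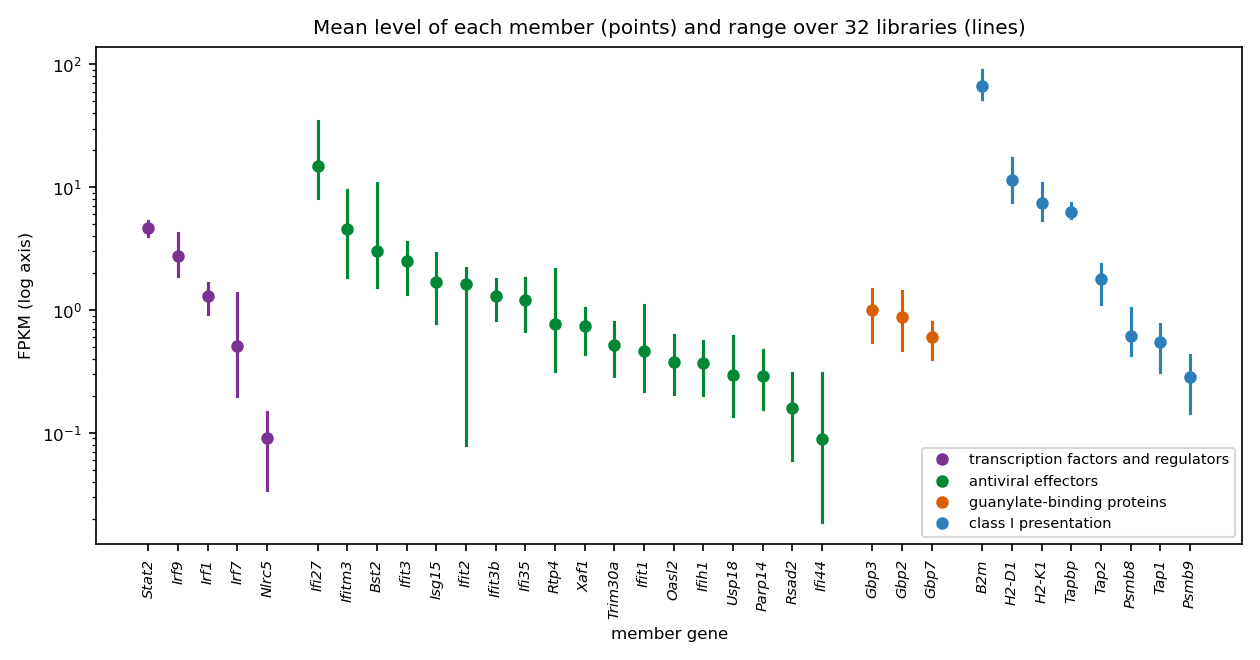
Mean FPKM of each of the 34 members over 32 libraries (points, log axis) with the lowest and highest library (lines), grouped by role. B2m stands highest at 66.9 FPKM and Ifi44 lowest at 0.0897, and the line of Ifit2 reaches far below its mean.

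The members differed in how steady they were. Stat2 varied least, with a highest library 1.29 times its lowest, and Tapbp was next at 1.34 times. Ifit2, a tetratricopeptide repeat protein that restrains viral translation, varied most, with a highest library 26.8 times its lowest. In 29 libraries Ifit2 lay between 5.59 and 9.40 CPM (a gene's reads as a rate per library size, TMM-scaled). The other 3 libraries, all adolescent, held 0.375 CPM (control day 1 replicate 2), 0.350 CPM (control day 21 replicate 4) and 0.646 CPM (defeat day 21 replicate 2). The neighbouring family members Ifit1, Ifit3 and Ifit3b were not lower in those libraries to a like degree: Ifit3 stood there at 3.55, 2.54 and 4.63 CPM. Ifit2 was singled out after its values were seen. By group mean, adult defeat day 1 was the highest of the 8 groups for 19 of the 34 members, and adolescent control day 21 was the lowest for 17.

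The defeat comparisons ask whether defeated mice differ from controls of the same age class and day. Log2 changes are defeat minus control with their standard error, from 1 edgeR quasi-likelihood fit of 8 group means, and a gene is called when its Benjamini-Hochberg adjusted p over all 23778 genes is under 0.05. At day 1 in adults 3 members rose: the heavy-chain genes H2-D1 and H2-K1 and the transcription factor Irf9. At day 1 in adolescents H2-D1 rose. No member passed at day 21 in either age class.

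H2-D1, which encodes a class I heavy chain, held 27.0, 28.5, 28.9 and 33.5 CPM in the adult control day 1 libraries (replicates 1 to 4) and 45.1, 40.2, 47.3 and 36.8 CPM after defeat. All 4 defeat libraries stood above all 4 controls. The group means were 42.4 ± 4.73 and 29.5 ± 2.79 CPM (SD, n = 4), a log2 change of 0.52 ± 0.10 (edgeR adjusted p = 0.018). H2-K1, the other classical heavy chain, held 20.9, 18.9, 25.9 and 21.03 CPM in the controls and 32.1, 30.1, 34.3 and 26.5 CPM after defeat. Its groups did not overlap either, although the lowest defeat library lay close to the highest control. The change was 0.50 ± 0.10 (edgeR adjusted p = 0.018). Reads from these near-identical genes can be assigned to either one, so both changes are uncertain as to the single gene. Summed to 1 feature, H2-D1 plus H2-K1 changed by 0.51 ± 0.09 (edgeR adjusted p = 0.00754).

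Irf9, the DNA-binding subunit of the type I interferon complex, held 15.7, 13.4, 16.5 and 13.2 CPM in adult control day 1 and 21.8, 20.9, 24.6 and 18.6 CPM in adult defeat day 1. The groups did not overlap, and the change was 0.55 ± 0.11 (edgeR adjusted p = 0.0211). In the deposited gene models Irf9 overlaps Rnf31, a ubiquitin ligase gene on the same strand, and Rnf31 had a log2 change of 0.12 ± 0.07 (edgeR adjusted p = 0.671) in that comparison. For Stat2, the partner of IRF9, the log2 change was 0.07.

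**Figure D2:**
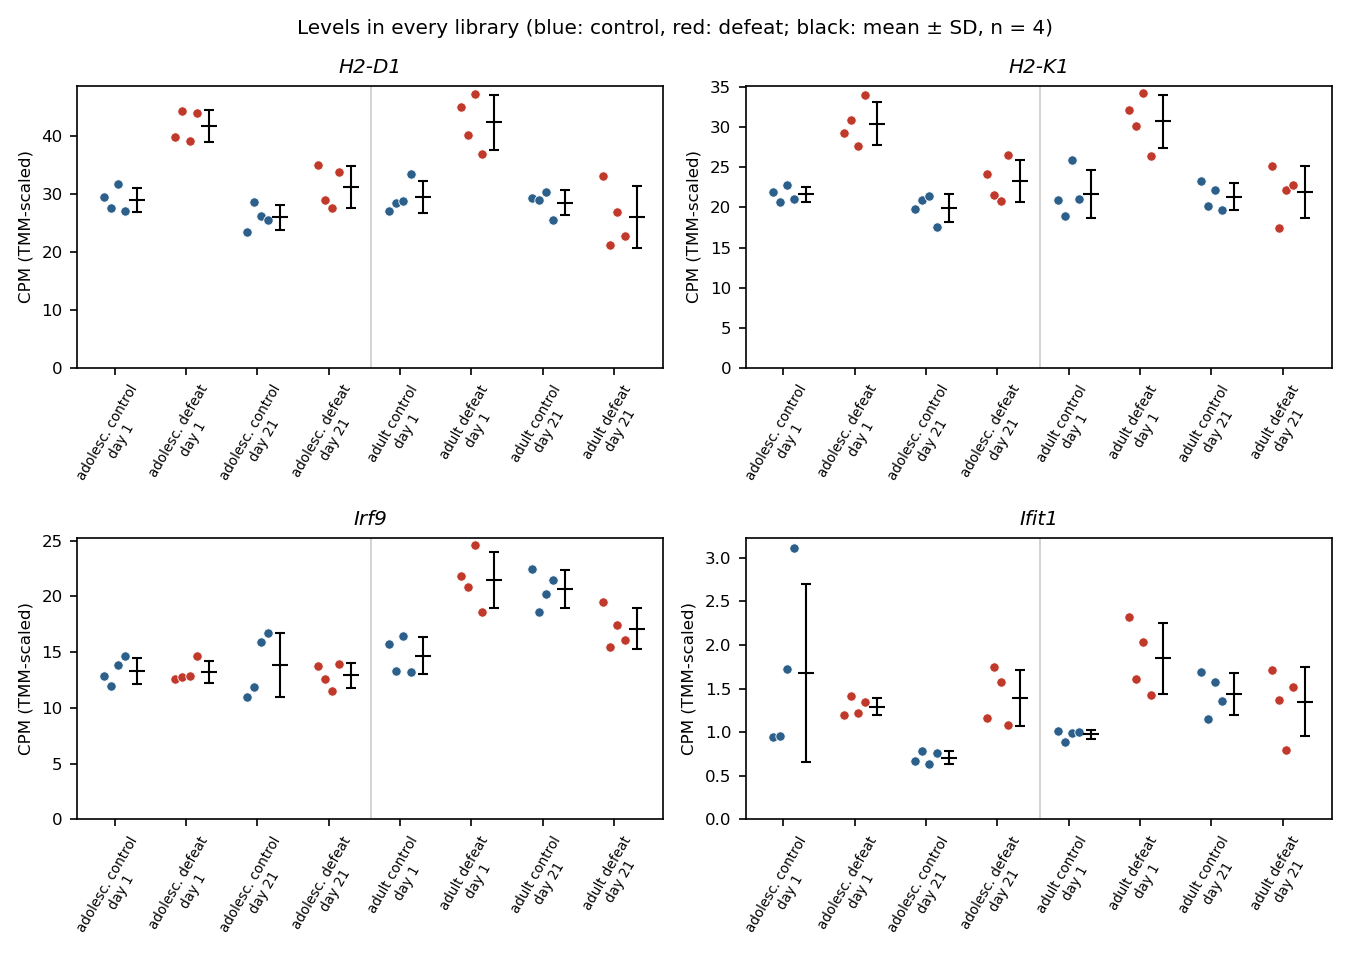
CPM of H2-D1, H2-K1, Irf9 and Ifit1 in every library of the 8 groups (controls blue, defeat red), with the mean and SD of 4 libraries in black and axes from 0. The day 1 defeat groups of both age classes stand above their controls for H2-D1 and H2-K1, while for Irf9 adult defeat day 1 stands apart from adult control day 1 but not from adult control day 21.

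The 3 called members compare with 0.353% of all genes called in either direction in the adult day 1 comparison. At the looser mark of an unadjusted p under 0.05, 13 members were higher, against 5.19% of all genes, and 1 was lower, against 4.31%. Of the 34 members 32 had a log2 change above 0 (49% of all genes), and their median was 0.38, while the median of all genes tested was -0.004. All 5 regulators, all 3 guanylate-binding proteins and all 8 class I genes were above 0, as were 16 of the 18 antiviral effectors, with medians of 0.55, 0.35, 0.22 and 0.44 in that order. Groups did not overlap for 5 members, all higher after defeat, against 3.07% of genes. The 2 beside the called genes were Ifit1, an antiviral RNA-binding protein, with 0.92 ± 0.27 (edgeR adjusted p = 0.18) and Nlrc5, the class I coactivator, with 0.72 ± 0.23 (edgeR adjusted p = 0.24). Nlrc5 held 0.858, 0.804, 0.709 and 0.689 CPM in controls and 1.37, 0.982, 1.38 and 1.31 CPM after defeat. B2m had a change of 0.23 ± 0.09 (edgeR adjusted p = 0.333), while Rsad2 had the opposite sign, with -0.83 ± 0.35 (edgeR adjusted p = 0.414).

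The rest of the members did not pass the test in adults at day 1, and their log2 changes are given by role. Among the regulators Irf7 had 0.63 and Irf1, a factor induced by interferon gamma, 0.21. The guanylate-binding GTPases Gbp2, Gbp3 and Gbp7 had 0.35, 0.44 and 0.33. Bst2, the virion tether tetherin, had 0.85, the oligoadenylate synthetase-like Oasl2 0.55 and the ADP-ribosyltransferase Parp14 0.52. Isg15, a ubiquitin-like modifier, had 0.47 and Usp18, the protease that removes it, 0.52. The RNA sensor gene Ifih1 had 0.38, Trim30a 0.38, Ifi27 0.40, Ifitm3 0.47, Rtp4 0.69 and the sparse Ifi44 0.94. Near 0 lay Xaf1 (0.03), Ifi35 (0.06) and Ifit3 (0.07), with Ifit3b at 0.18 and Ifit2 at -0.11. The peptide transporter subunits Tap1 and Tap2 had 0.21 and 0.14, the inducible proteasome subunits Psmb8 and Psmb9 0.13 and 0.24, and Tapbp 0.13.

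In adult defeat day 1 a single library was high for many members. This was replicate 3, the highest of its 4 libraries for 20 members and the highest of all 32 for 14. Bst2 held 10.4 CPM there against 2.18, 5.01 and 1.91 CPM in the other replicates. Irf7 held 5.59 CPM there against 1.68, 2.32 and 2.97. Without that library the members' median fell from 0.38 to 0.22, the count with an unadjusted p under 0.05 fell from 14 to 6, no member was called, and 31 of 34 were above 0. Without adult control day 1 replicate 2 the count at that mark was 8. The 3 calls also ended without adult defeat day 1 replicate 1, without adult control day 1 replicate 2, and in a fit of only these 2 groups. Irf9 alone was called without control replicate 1, H2-D1 alone without control replicate 4 or defeat replicate 2, and Irf9 and H2-K1 without control replicate 3. The log2 changes stayed between 0.47 and 0.61 for Irf9, between 0.47 and 0.59 for H2-D1 and between 0.44 and 0.60 for H2-K1 over the 8 libraries left out.

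Transcripts of the choroid plexus, a ventricular epithelium that lies outside the amygdala, differ between these libraries. Ttr, its thyroid hormone carrier, exceeded 100 CPM in 11 libraries, among them adult defeat day 1 replicates 2 and 3 (1340 and 2228 CPM) and adult control day 1 replicate 1 (2342 CPM). H2-D1 was at 45.1 CPM in adult defeat day 1 replicate 1, where Ttr was at 4.70 CPM, and at 27.0 CPM, the lowest of its group, in adult control day 1 replicate 1. Within adult defeat day 1, however, H2-D1 was highest in replicate 3 (47.3 CPM), which also had the most Ttr. It was lowest in replicate 4 (36.8 CPM), where Ttr was at 22.2 CPM. With Ttr as a covariate the same 3 members were called. Without the 11 libraries above 100 CPM none was, with log2 changes of 0.49 for Irf9, 0.43 for H2-D1 and 0.41 for H2-K1 (edgeR adjusted p = 0.379, 0.453 and 0.511). That fit kept only replicates 1 and 4 of adult defeat day 1 and replicates 2, 3 and 4 of its controls. The members' median was then 0.17, with 30 of 34 above 0 and 7 at an unadjusted p under 0.05. The summed level of 10 endothelial markers ran from 166 to 200 CPM in adult defeat day 1 and from 141 to 208 CPM in its controls. That of 12 microglial markers ran from 500 to 637 and from 451 to 623 CPM, and 8 T and NK cell markers summed to 0.816 CPM or less in every library. No microglial or endothelial marker was called in this comparison (edgeR), and 0 of each list had an unadjusted p under 0.05. All 5 red cell markers were above 0, with a median of 0.38 and 0 at that mark.

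**Figure D3:**
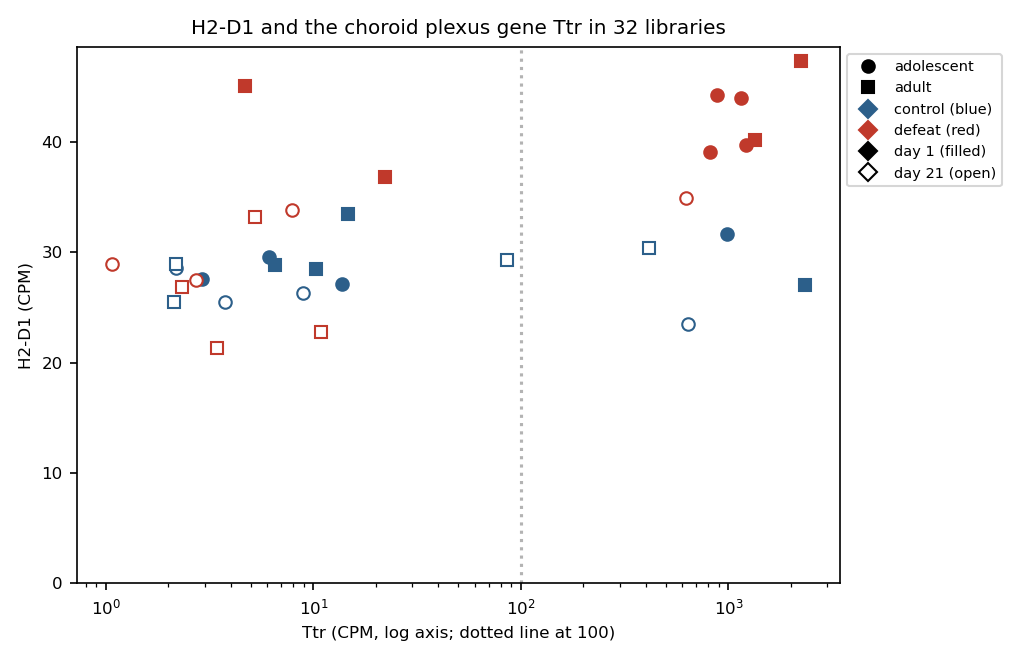
H2-D1 against Ttr in CPM for the 32 libraries (Ttr on a log axis, dotted line at 100 CPM), by age class, treatment and day. The 8 day 1 defeat libraries lie between 36.8 and 47.3 CPM of H2-D1, and the 16 controls lie between 23.5 and 33.5 CPM. Of these defeat libraries only adult replicates 1 and 4 lie below 100 CPM of Ttr.

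In adolescents at day 1 the 1 member called was a class I heavy chain, and the antiviral effectors were split in sign. H2-D1 held 29.5, 27.5, 31.7 and 27.1 CPM in controls and 39.8, 44.2, 39.1 and 44.0 CPM after defeat. The lowest defeat library was above the highest control, and the change was 0.53 ± 0.10 (edgeR adjusted p = 0.0419). H2-K1 held 21.95, 20.6, 22.8 and 21.1 CPM in controls and 29.3, 30.9, 27.6 and 33.997 CPM after defeat. These groups also did not overlap, and the change of 0.49 ± 0.10 missed the threshold (edgeR adjusted p = 0.0562). The summed feature changed by 0.51 ± 0.09 (edgeR adjusted p = 0.0319). The call of H2-D1 ended in a fit of only the groups compared and with any 1 of the 8 libraries left out, the latter with adjusted p-values from 0.0574 to 0.237 and log2 changes from 0.50 to 0.57.

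The 1 call stands beside 0.0547% of all genes called in the adolescent day 1 comparison. Of the 8 class I genes 7 had a log2 change above 0, with a median of 0.19, and 4 had an unadjusted p under 0.05. These were H2-D1, H2-K1, Tapbp with 0.22 ± 0.07 (edgeR adjusted p = 0.329) and Tap2, a subunit of the peptide transporter, with 0.40 ± 0.15 (edgeR adjusted p = 0.464). The 18 antiviral effectors split evenly, 9 above and 9 below 0, with a median of -0.003. Over all 34 members 18 were above 0 (49% of all genes), the median was 0.01, and 6 were higher at an unadjusted p under 0.05 (4.24% of genes) and none lower. The split rested in part on 1 library: without adolescent control day 1 replicate 4, the highest of its 4 libraries for 19 members, 26 of 34 were above 0, the median was 0.08 and 8 had an unadjusted p under 0.05. Groups did not overlap for 4 members, against 2.64% of genes: H2-D1, H2-K1, Tapbp and Ifitm3, which blocks viral entry, with 0.59. Irf9 had a log2 change of -0.01 ± 0.11 (edgeR adjusted p = 0.996).

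All 4 adolescent defeat day 1 libraries were above 100 CPM of Ttr (813 to 1220 CPM), against 1 of the 4 controls, so that choroid plexus transcripts and defeat cannot be told apart over most of this comparison. In control replicate 3, where Ttr was 982 CPM, H2-D1 was 31.7 CPM, the highest of the controls and below every defeat library. With Ttr as a covariate no member was called, and the log2 change of H2-D1 was 0.49 (edgeR adjusted p = 0.171). Endothelial markers also moved with this comparison. Their sum was 248 to 299 CPM after defeat and 203 to 245 CPM in controls, all 10 were above 0 with a median of 0.31, and 5 had an unadjusted p under 0.05. All 5 red cell markers were higher at that mark, with a median of 0.80 and sums of 139 to 279 CPM after defeat and 92.3 to 161 CPM in controls. Of 5 pericyte markers 3 were higher at that mark, with a median of 0.29. For microglia 10 of 12 markers were above 0 with a median of 0.16, and 5 had an unadjusted p under 0.05, all higher. Their sums overlapped (546 to 596 against 463 to 621 CPM). The part of these cell types in the H2-D1 result was not tested.

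At day 21 in adolescents no member was called (0.0126% of all genes were), by edgeR, by DESeq2 or by limma, whose FPKM scale kept 18 of the members. The unadjusted p was under 0.05 for 9 members, all higher, against 2.73% of genes higher at that mark. Without adolescent control day 21 replicate 4 the count was 4, and without adolescent defeat day 21 replicate 4 it was 5. Of the antiviral effectors 15 of 18 were above 0, with a median of 0.32, and over all members 27 of 34 were above 0 (50.9% of all genes) with a median of 0.23. Ifit1 held 0.668, 0.779, 0.630 and 0.761 CPM in controls and 1.16, 1.75, 1.57 and 1.09 CPM after defeat. The groups were fully separated, with a change of 0.97 ± 0.28 (edgeR adjusted p = 0.464). Its neighbour Ifit3 held 3.26, 4.84, 3.18 and 2.54 CPM in controls and 4.61, 4.63, 5.49 and 4.96 CPM after defeat, with overlap at control replicate 2. Its change was 0.51 ± 0.18 (edgeR adjusted p = 0.666). Separated groups were found for 6 members, all higher, against 1.92% of genes: Ifit1, Ifit3b, Trim30a, Gbp7, B2m and Oasl2, an oligoadenylate synthetase-like protein. Oasl2 held 1.94, 2.08, 2.24 and 1.48 CPM in controls and 2.79, 3.06, 2.61 and 2.64 CPM after defeat. The sum of endothelial markers was 225 to 293 CPM after defeat and 202 to 262 CPM in controls. All 10 of these markers were above 0, with a median of 0.34 and 5 at an unadjusted p under 0.05, and their part in the members' values was not tested.

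At day 21 in adults no member was called either (0.00841% of all genes were), by edgeR, by DESeq2 or by limma, and most log2 changes were below 0. Of the 34 members 29 were below 0, with a median of -0.11, whereas 50% of all genes were above 0. The unadjusted p was under 0.05 for 4 members, all lower, against 3.29% of genes lower at that mark. These values moved with single libraries. Without adult defeat day 21 replicate 2 the median was -0.05, 14 of 34 were above 0 and 1 had an unadjusted p under 0.05. Without adult defeat day 21 replicate 1 the median was -0.22, 1 was above 0 and 7 were at that mark. The median was also closer to 0 without adult defeat day 21 replicate 3 (-0.05) and without adult control day 21 replicate 3 (-0.07), and the count at that mark was 1 without adult control day 21 replicate 1 and 2 without adult defeat day 21 replicate 4. Gbp7, an interferon-induced GTPase, held 3.43, 4.19, 4.17 and 4.64 CPM in controls and 3.67, 3.10, 2.89 and 2.41 CPM after defeat. Defeat replicate 1 overlapped the controls, and the change was -0.44 ± 0.16 (edgeR adjusted p = 0.543). Irf9 held 22.5, 18.6, 20.2 and 21.5 CPM in controls and 19.5, 15.5, 17.4 and 16.0 CPM after defeat, again with overlap at replicate 1, and its change was -0.27 ± 0.11 (edgeR adjusted p = 0.684). Irf7 was the 1 member with separated groups, at 2.10, 1.77, 2.21 and 1.84 CPM in controls and 1.64, 0.882, 1.46 and 0.984 CPM after defeat. Separated groups with lower values after defeat were found for 1.9% of all genes. Adult defeat day 21 replicate 1 was the highest of its 4 libraries for 22 members. Of the 10 endothelial markers 8 had an unadjusted p under 0.05 and were lower after defeat, with a median of -0.43 and none called, and their part in the members' values was not tested.

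**Figure D4:**
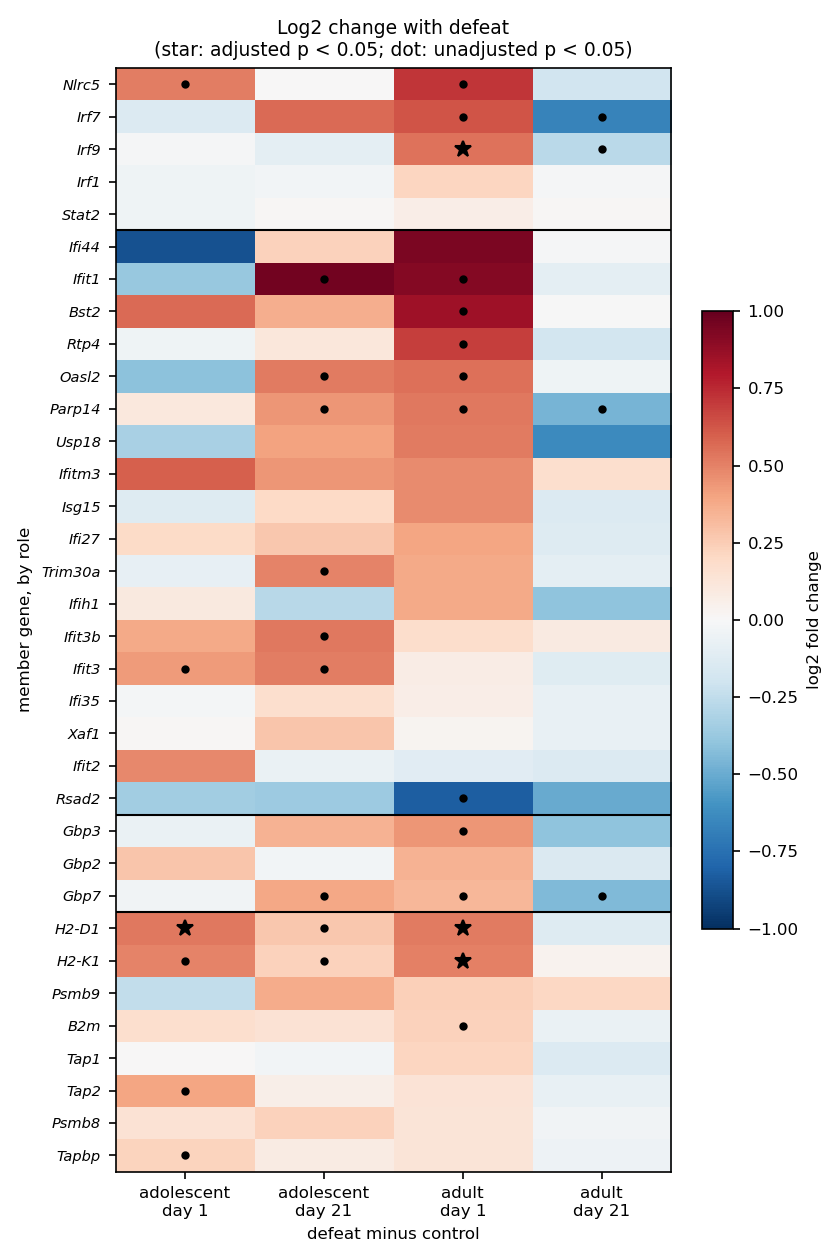
Log2 change with defeat for the 34 members (rows, by role) in the 4 defeat comparisons (columns), on a colour scale from -1 to 1. Stars mark the 4 values with an adjusted p under 0.05 and dots an unadjusted p under 0.05. The adult day 1 column is red in 32 of 34 rows, while in the adolescent day 1 column the antiviral effectors are split and the heavy chains are red.

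The interactions ask whether the effect of defeat differed between days or between age classes. In adults the effect at day 21 was lower than at day 1 for 2 members, Irf9 and H2-D1, by edgeR (0.622% of all genes were called in either direction). The difference of effects was -0.82 ± 0.16 for Irf9 (adjusted p = 0.00934) and -0.65 ± 0.15 for H2-D1 (adjusted p = 0.0297). The controls of the contrast also differed in Irf9, which was 20.7 ± 1.69 CPM in adult control day 21 and 14.7 ± 1.65 CPM in adult control day 1 (SD, n = 4). Irf9 was called with each of the 16 libraries left out in turn, and H2-D1 with 6 of them. With Ttr as a covariate Irf9 alone was called, and H2-D1 had -0.62 (edgeR adjusted p = 0.057). Without the libraries above 100 CPM of Ttr neither was called, with -0.77 for Irf9 and -0.53 for H2-D1 (edgeR adjusted p = 0.155 and 0.422). H2-K1 had a difference of -0.47 ± 0.14 (edgeR adjusted p = 0.167), and the summed heavy chains one of -0.57 ± 0.13 (edgeR adjusted p = 0.0357). Over the members 33 of 34 differences were below 0 (51.6% of all genes were above 0), the median was -0.49, and 13 had an unadjusted p under 0.05, all lower, against 5.93% of genes lower at that mark. Without the libraries above 100 CPM of Ttr the median was -0.27 and 4 members were at that mark. Of the 10 endothelial markers 7 had an unadjusted p under 0.05 and were lower here too, with a median of -0.59.

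The other interactions called no member by edgeR, DESeq2 or limma. In adolescents the day interaction had 2 members with an unadjusted p under 0.05 and above 0 (2.2% of genes), led by Ifit1 with 1.34 ± 0.39 (edgeR adjusted p = 0.679); 0.00421% of genes were called. Adult minus adolescent effects at day 1 had 5 members higher at that mark (3.48% of genes; 0.0168% were called; 3 to 8 at that mark with 1 library left out), and Irf9 had the smallest p with 0.56 ± 0.16 (edgeR adjusted p = 0.344). For the summed heavy chains the same difference was 0.00 ± 0.13 (edgeR adjusted p = 1). At day 21 the difference was below 0 in 32 of 34 members (50.2% of all genes were above 0), with 8 lower at an unadjusted p under 0.05 (3.74% of genes; 0.0252% were called) and a median of -0.27. Without the libraries above 100 CPM of Ttr 4 were at that mark, and without adult defeat day 21 replicate 2 the median was -0.17. All 10 endothelial markers were below 0 here, with a median of -0.81 and 8 at an unadjusted p under 0.05, and their part in the members' values was not tested. Gbp7 had the smallest p there, with -0.83 ± 0.22 (edgeR adjusted p = 0.301).

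**Figure D5:**
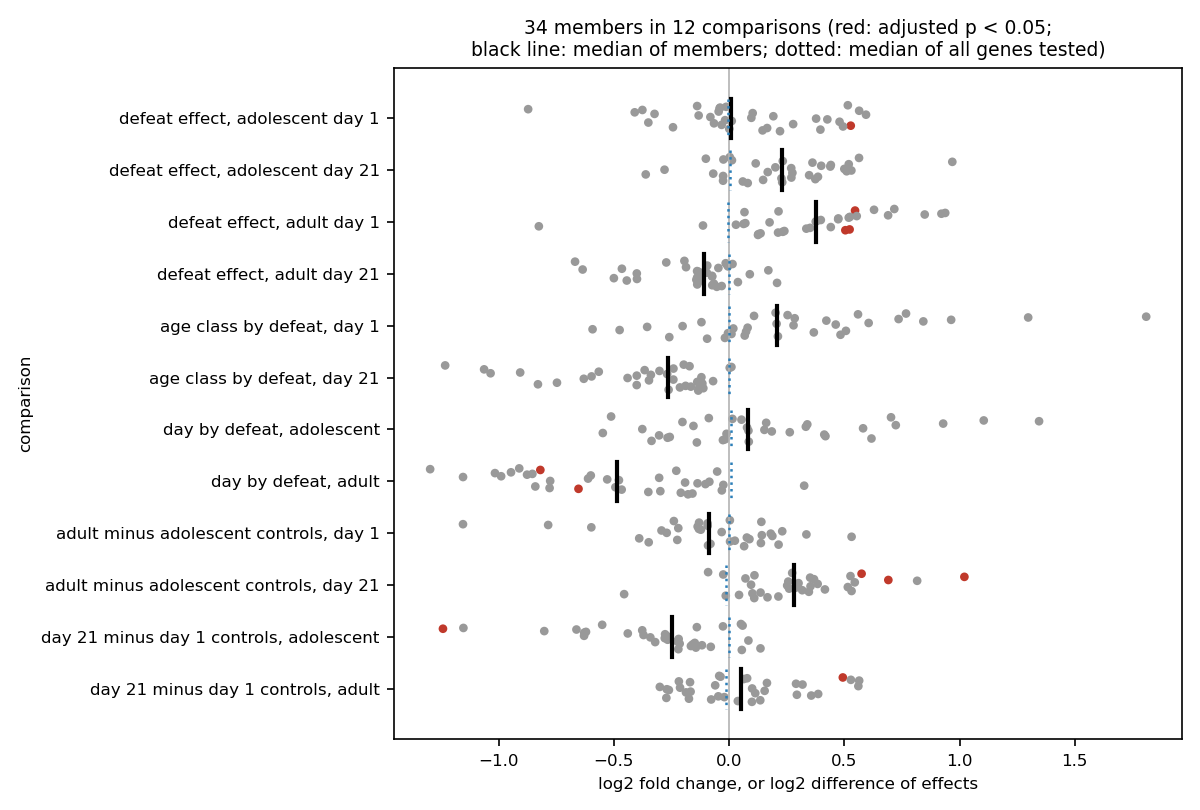
Log2 changes, or log2 differences of effects, of the 34 members (points) in 12 comparisons, with called members in red, the members' median as a black line and the median of all genes tested as a dotted line. The members' median is highest for the adult day 1 defeat effect (0.38) and lowest for the day interaction in adults (-0.49).

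Control groups differed among themselves as well. At day 21 adult controls were higher than adolescent controls in Irf9, Ifit1 and Parp14, by edgeR (6.06% of all genes were called). Irf9 held 11.0, 11.9, 16.0 and 16.7 CPM in the adolescent controls and 22.5, 18.6, 20.2 and 21.5 CPM in the adult ones. The groups did not overlap, with a difference of 0.57 ± 0.11 (adjusted p = 0.00171). Ifit1 held 0.668, 0.779, 0.630 and 0.761 CPM in adolescent controls and 1.69, 1.15, 1.58 and 1.35 CPM in adult controls, a separation of 1.02 ± 0.28 (edgeR adjusted p = 0.0251). Parp14, an ADP-ribosyltransferase induced by interferon, held 1.91, 1.96, 2.26 and 1.99 CPM against 3.57, 2.70, 3.22 and 3.62 CPM. Its groups did not overlap either, with 0.69 ± 0.20 (edgeR adjusted p = 0.0332). Irf9 was called with each of the 8 libraries left out, Ifit1 with 3 of them and Parp14 with 2. Of the members 30 of 34 were above 0 (47.5% of all genes), the median was 0.28, and 7 had separated groups against 7.09% of genes. Of the endothelial markers 9 of 10 were above 0 as well, with a median of 0.32 and 5 at an unadjusted p under 0.05, and Flt1, a VEGF receptor, was called with 0.73 ± 0.18 (edgeR adjusted p = 0.0134). Their sums were 255 to 276 CPM in adult and 202 to 262 CPM in adolescent controls, and their part in the members' values was not tested. The adolescent control group in this contrast is also the one in the adolescent day 21 defeat comparison, so those values share libraries. At day 1 adult and adolescent controls differed in no member by edgeR, DESeq2 or limma (4.38% of all genes were called), with 2 members lower at an unadjusted p under 0.05 (7.89% of genes).

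Between the control groups of 1 age class, day 21 was lower than day 1 for Ifit1 in adolescents, and higher for Irf9 in adults. Ifit1 held 0.943, 0.952, 1.72 and 3.11 CPM in adolescent control day 1. Replicate 4 was thus high, and all 4 stood above adolescent control day 21, where the highest library was 0.779 CPM. The difference was -1.24 ± 0.28 (edgeR adjusted p = 0.0236; 0.925% of all genes were called) and the call held without day 1 replicate 1 or 2 but not without any 1 of the other 6 libraries. Without day 1 replicate 4 it was -0.77 (edgeR adjusted p = 0.195). Adolescent control day 1 replicate 4 was the highest of its 4 libraries for 19 members. Separated groups with lower values at day 21 were found for 3 members, against 3.95% of genes. Beside Ifit1 these were Parp14 and Oasl2, the latter with -0.80 ± 0.21 (edgeR adjusted p = 0.0589). In adults Irf9 was 0.49 ± 0.11 higher at day 21 than at day 1 (edgeR adjusted p = 0.0288; 0.858% of all genes were called), with no overlap, and was called with 3 of the 8 libraries left out. Endothelial markers moved with that comparison: 7 of 10 were called higher, with sums of 255 to 276 CPM at day 21 and 141 to 208 CPM at day 1, and Flt1 was 1.07 ± 0.19 higher (edgeR adjusted p = 0.0041). Their part in the Irf9 result was not tested.

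Other genes of the pathway were looked up in 7 lists, of which 101 genes were tested. None was called in the 4 defeat comparisons or the 4 interactions by edgeR. Pooled over these comparisons 74 of the 808 values (9.16%) had an unadjusted p under 0.05. For all genes the shares in the same comparisons, not pooled, were 7.45%, 5.72%, 9.51% and 6.46% for the defeat effects. For the interactions they were 6.62%, 7.28%, 4.97% and 10.6%. The pooled 9.16% lay above each of these except 9.51% and 10.6%. At that mark 12 of the 101 were higher and 5 lower in adults at day 1 (9.51% of all genes in either direction). In adolescents at day 1 10 were higher and 4 lower (7.45%). Fewer were at that mark in adults at day 21, with 2 higher and 4 lower (6.46%), and for age class by defeat at day 1, with 2 and 1 (6.62%). In adults at day 1, the comparison most of the following counts refer to, 49% of all genes were above 0 and 9.51% had an unadjusted p under 0.05. The transcripts of interferons themselves were near absent: over all 32 libraries together Ifnb1 had 2 counts, Ifng 11, Ifna2 13 and Ifne 15, and none passed the filter. Of 15 receptor and signalling genes 14 were above 0 in adults at day 1, with a median of 0.10 and 3 at an unadjusted p under 0.05, all higher. Of 38 other interferon-stimulated genes tested 32 were above 0 in that comparison, with a median of 0.32, and 3 had an unadjusted p under 0.05 in the higher direction and 1 in the lower. At day 21 in adults 29 of those 38 were below 0, with a median of -0.16. Among 20 other class I genes 12 were above 0 at day 1 in adults, and the smallest p belonged to H2-Q4, a non-classical heavy chain whose reads can also be shared, with 0.78 ± 0.20 (edgeR adjusted p = 0.0739). In adolescents at day 1 H2-Q4 had 0.59 ± 0.19 (edgeR adjusted p = 0.383). The 7 constitutive proteasome genes had a median of -0.04 in adults at day 1, and 8 class II pathway genes, which present antigen from outside the cell, one of 0.13 with none at an unadjusted p under 0.05. Of 13 nucleic acid sensing genes tested 9 were above 0 in adults at day 1, and 2 had an unadjusted p under 0.05.

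In the control comparisons of the age classes 5 of 101 pathway genes (4.95%) were called at each day by edgeR, close to the 4.38% of all genes called at day 1 and below the 6.06% at day 21. All 5 were higher in adults on each day. At day 1 they included Jak2, a Janus kinase (0.35 ± 0.06, edgeR adjusted p = 0.000398), and Irf3, which induces interferon (0.41 ± 0.08, edgeR adjusted p = 0.00415). The others were the class I folding chaperones Calr, Canx and Pdia3, with 0.29, 0.16 and 0.32. At day 21 Jak2 (0.31), Irf2 (0.22), Samd9l (0.53), Slfn2 (1.04) and Slfn5 (1.09) were higher in adults, with adjusted p-values from 0.0012 to 0.0295 in edgeR. Between day 1 and day 21 controls of 1 age class no pathway gene was called by edgeR, and 21 of 202 values (10.4%) had an unadjusted p under 0.05, below the 11.8% and 12.9% of all genes.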

How the data were processed

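The deposited table gives, per gene and library, a whole-number read count and an FPKM value, both computed by the authors. Per the submitters' processing notes the tools were cutadapt 1.9, HISAT2 2.0.4, StringTie 1.3.4d and edgeR. Their roles, the annotation and the use of strand are not given in the sources used here, and without strand, reads of a member and of a gene overlapping it on either strand (15 of the 34 members have one) cannot be told apart. The notes name hg38 although the identifiers are mouse ones, and a mouse gene name table held 37197 of the 40392. Promoter coordinates are those of GRCm38.p6, and no coordinates of the deposited table are printed.

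From the deposited counts, library sizes were scaled by TMM and genes filtered by filterByExpr within groups in edgeR 4.0.16 (R 4.3.3), which left 23778 genes with 99.975% of the counts. The 8 group means were fitted together (24 residual degrees of freedom), and 12 contrasts were tested by quasi-likelihood F tests, 2-sided, adjusted by Benjamini-Hochberg over all genes of a comparison and called under 0.05. The biological coefficient of variation was 0.185. Standard errors (SE) were obtained from each log2 change and its F value. The deposited FPKM values served for levels between genes and for limma 3.58.1 on log2(FPKM + 0.1) and log2(FPKM + 1), in genes with at least 1 FPKM in at least 4 libraries, where the pseudocount understates changes of low genes. Other alternatives were upper quartile scaling, no filter, DESeq2 1.42.0, a fit of only the groups compared, a replicate block, Ttr as a covariate, leaving out libraries above 100 CPM of Ttr, summed near-identical copies, an unadjusted p, and each library left out. The tests were also run on simulated counts. No 2 libraries of a group agreed within sampling noise.

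The members, the 7 pathway and 11 marker lists and the alternatives were chosen with earlier results of these data known. Members called in any comparison are given with every library, and in a defeat comparison without calls the 2 with the smallest p are given. The other members are given by role, with the log2 change of each in the adult day 1 defeat comparison. Values of Ifit2, Bst2, Irf7, Nlrc5, Oasl2 and Rsad2, of members with separated groups, and of further single members were printed after they were seen.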

Additional observations from a re-analysis of the deposited data

Results flagged for a closer look

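In adults the effect of defeat differed between the days for Irf9, by -0.82, and for H2-D1, by -0.65, both log2 differences of the day 21 effect minus the day 1 effect that passed the threshold in edgeR. The adult controls themselves differed in Irf9, by 0.49 for day 21 minus day 1. Over the 16 libraries left out in turn, Irf9 was called each time and H2-D1 with 6 of them. Neither was called without the libraries above 100 CPM of Ttr (edgeR adjusted p = 0.155 and 0.422).

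Single libraries that stood far from the other 3 of their group were looked for in 13 members and 8 groups, 104 sets in all. Chance marks about 1 set in 20, and 6 were marked. Ifit1 in adult control day 1 was lowest in replicate 2, at 0.893 CPM with the nearest library at 0.993 CPM. Ifit3 in adolescent control day 1 was highest in replicate 4, at 5.86 CPM with the nearest at 3.82 CPM. Rsad2 in the same group was highest in the same replicate, at 1.42 CPM with the nearest at 0.753 CPM. Irf9 in adolescent defeat day 1 was highest in replicate 4, at 14.6 CPM with the nearest at 12.9 CPM. Ifit2 was lowest in replicate 4 of adolescent control day 21, at 0.350 CPM with the nearest at 7.36 CPM. Ifit2 was also lowest in replicate 2 of adolescent defeat day 21, at 0.646 CPM with the nearest at 7.29 CPM.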

How the results depend on the processing

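The log2 changes that were recomputed, of H2-D1, H2-K1, Irf9, Ifit1, Ifit3, Gbp7 and Parp14 in the comparisons they were called in or led by p, kept their sign under each alternative run, while calls often changed. Signs of other members did turn: with 1 library left out, members above 0 ran from 17 to 26 in the adolescent day 1 defeat effect and from 1 to 14 in the adult day 21 one. Members called in the adolescent day 1 defeat effect numbered 1 in the edgeR fit of all groups. The count was 0 without the filter, in limma with either pseudocount, in a fit of only the groups compared and with Ttr as a covariate. It was 2 in DESeq2. With near-identical copies summed it was 1, the feature of H2-D1 plus H2-K1. For adult day 1 (3 called) it was 0 in only the groups compared and 0 without the libraries above 100 CPM of Ttr. For the day interaction in adults (2 called) it was 1 without the filter, in only the groups compared and with Ttr as a covariate, 4 in DESeq2 (Gbp7 and Parp14 added) and 0 without those libraries. For adult minus adolescent controls at day 21 (3 called) it was 0 without those libraries. It was 1 in limma with either pseudocount, where Ifit1 and Parp14 were not tested. For day 21 minus day 1 controls in adolescents (1 called, Ifit1) it was 2 in DESeq2 and 0 in only the groups compared and without those libraries. It was also 0 in both limma fits, which did not test Ifit1. In adults (1 called) it was 0 without the filter, in only the groups compared and without those libraries. The cause was not tested, except that limma tested 18 of the members and that the last alternative kept 21 of 32 libraries. It could not be fitted where adolescent defeat day 1 enters.

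Counts of members at an unadjusted p under 0.05, in either direction, are given with the share of all genes in brackets. The adolescent defeat effect had 6 (7.45%) at day 1 and 9 (5.72%) at day 21, and the adult one 14 (9.51%) and 4 (6.46%). Age class by defeat had 5 (6.62%) and 8 (7.28%) at day 1 and 21. Day by defeat had 2 (4.97%) in adolescents and 13 (10.6%) in adults. Control age classes had 2 (16.5%) at day 1 and 8 (19%) at day 21. Control days had 5 (11.8%) in adolescents and 4 (12.9%) in adults. In these control comparisons the shares of the members were 5.88%, 23.5%, 14.7% and 11.8%, in that order.

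With each library left out the count ran from 0 to 0 for the adolescent day 1 defeat effect, 0 to 3 for the adult one, 1 to 4 for the day interaction in adults, 0 to 1 and 1 to 3 for control age classes at day 1 and 21, and 0 to 2 and 0 to 1 for control days in adolescents and adults. It stayed at 0 for the other 5.

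The replicate numbers did not pair the libraries: correlations of deviations between same-numbered libraries ran from -0.302 to 0.176. With the number as a replicate block, 2 members were called in the adolescent day 1 defeat effect in place of 1.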
